A study of Mus musculus with 4 samples.

Results

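The genes described here are 10 transcription factors and antiproliferative genes grouped under the label of naive lymphocyte quiescence. They are the forkhead factors Foxo1, Foxo3 and Foxp1 and the Krüppel-like factors Klf2, Klf3, Klf4, Klf6 and Klf13. The others are the leucine zipper gene Tsc22d3 and the antiproliferative gene Btg1. The label does not mean that each is known to hold cells at rest, and Klf6 is itself induced quickly by stimulation. The 10 genes were chosen by name, with earlier results of these data known. Each of the 10 symbols was found among the 23305 genes of the tables. RNA had been sequenced from quiescent follicular B cells sorted from mouse spleen, with 2 biological replicates from WT mice and 2 from Ets1-/- mice. All mice were female. The WT mice were C57BL/6, whereas the Ets1-/- mice carried a germline mutation of Ets1, a transcription factor of the Ets family, and had a mixed C57BL/6 x 129Sv background, so genotype and strain cannot be told apart in any value below. No treatment and no age are stated for the mice of these libraries, nor whether a replicate is 1 mouse or a pool. The sort kept live B220+ cells with high CD23, low CD21, no CD80 and no switched immunoglobulin isotype on the surface.

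Naive B cells that have not met antigen stay out of the cell cycle for weeks, and this resting state is actively maintained. FOXO proteins are kept out of the nucleus when the antigen receptor and cytokine receptors signal through PI3K and Akt, and in resting cells they enter it and drive genes of homing, survival and cell cycle arrest. Much of this control acts on the protein, which mRNA levels do not show. Krüppel-like factors bind GC-rich and CACCC sequences; Klf2 and Klf4 are abundant in resting lymphocytes and drop once the cells are activated, and Klf2 also sets where the cells travel. Btg1 brings the deadenylase complex to mRNAs and shortens their lives, and Tsc22d3 encodes GILZ, a protein induced by glucocorticoids and by FOXO factors that restrains AP-1 and NF-kB.

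None of the 10 genes passed both thresholds, an adjusted p of at most 0.05 and a change of at least 2-fold, in the limma test with Benjamini-Hochberg adjustment, against 1.70% of the 10949 genes tested. Foxo1 and Klf4, 2 of the 10, were under an unadjusted p of 0.05 in limma, where 13.3% of all genes were. Klf4 had the widest gap, with a mean 3.28-fold higher in Ets1-/- cells, and Klf2 stood 1.87-fold higher. Foxo1 stood 1.45-fold lower. Foxo3, Foxp1, Klf3 and Klf13 had nearly equal means in both genotypes. For 6 of the 10 genes, among them Foxo1 and Btg1, the 95% interval of the change lay inside a 2-fold difference in either direction, while for the other 4 (Klf2, Klf4, Klf6 and Tsc22d3) it reached past it.

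The promoters of Foxo1, Klf2 and Klf4 are shown because these 3 genes had the gaps the comparison turns on. Each is the 300 bases of the RefSeq table on GRCm38.p6, from 250 before to 50 after the start of transcription, read 5′ to 3′ on the gene's own strand. Capitals mark CCAAT (or its reverse, ATTGG), the sequence TGACG, which is part of the cAMP response element, (or its reverse, CGTCA), the FOXO element GTAAACA or ATAAACA (reverse TGTTTAC or TGTTTAT) and the MEF2 element.
Foxo1 promoter, chr3:52268087-52268386, plus strand: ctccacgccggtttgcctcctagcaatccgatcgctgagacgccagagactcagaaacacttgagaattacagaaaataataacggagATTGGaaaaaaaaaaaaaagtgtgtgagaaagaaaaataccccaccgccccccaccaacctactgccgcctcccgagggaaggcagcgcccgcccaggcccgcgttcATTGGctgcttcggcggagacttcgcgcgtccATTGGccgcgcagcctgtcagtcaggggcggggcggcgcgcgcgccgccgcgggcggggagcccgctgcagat
Klf2 promoter, chr8:72318812-72319111, plus strand: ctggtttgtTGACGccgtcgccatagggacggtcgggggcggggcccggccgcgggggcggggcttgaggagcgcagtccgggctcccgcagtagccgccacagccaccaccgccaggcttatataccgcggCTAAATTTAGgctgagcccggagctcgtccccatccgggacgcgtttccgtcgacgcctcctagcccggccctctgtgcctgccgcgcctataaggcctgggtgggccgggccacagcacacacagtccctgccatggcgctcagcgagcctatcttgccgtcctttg
Klf4 promoter, chr4:55532426-55532725, minus strand: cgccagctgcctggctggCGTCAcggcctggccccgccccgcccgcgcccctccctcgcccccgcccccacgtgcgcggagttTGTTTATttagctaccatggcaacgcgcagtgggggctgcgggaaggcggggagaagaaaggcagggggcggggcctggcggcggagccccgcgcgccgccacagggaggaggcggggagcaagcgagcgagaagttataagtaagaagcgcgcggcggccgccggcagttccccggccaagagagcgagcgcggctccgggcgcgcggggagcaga
The Foxo1 window held 3 CCAAT boxes, all in reverse, beginning at -162, -55 and -23 from the start. The Klf2 window held a TGACG at -241 and a MEF2 element, the target of the MEF2 factors downstream of ERK5, at -118. The Klf4 window held a reverse TGACG at -232 and a reverse FOXO element at -167. All 3 were rich in GC (61.3%, 69.3% and 74.3%) and in CpG (31, 32 and 40), against a median of 52.7% GC and 7 CpG over the 32851 promoters of the table.

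The 10 genes had 14 promoters in that table, because Foxp1 and Tsc22d3 have 3 each. TGACG on either strand was in 8 of the 14, in 1 promoter each of Btg1, Foxo3, Foxp1, Klf13, Klf2, Klf3, Klf4 and Tsc22d3, and in 20.8% of all promoters. The whole cAMP response element TGACGTCA, which contains TGACG, was in none of the 14 and in 1.79% of all. A FOXO element was in 4 of the 14, those of Btg1, Foxp1 and Klf4, and in 7.97% of all. CACCC, which KLF proteins bind, was in 7 of the 14 (Foxp1, Klf13, Klf2, Klf3 and Tsc22d3) and in 57.5% of all promoters. The MEF2 element was in Klf2 alone among the 14 and in 3.19% of all. The letters CCGGAA, a core that Ets factors bind, were in none of the 14 windows and in 14.9% of all, and the CArG box of serum response factor was in none of the 14 and in 1.63% of all. AGAACA, part of the element of the glucocorticoid receptor, was in 1 promoter of Tsc22d3 (19.0% of all). TATAAA was in Btg1 (13.6% of all), and CCAAT was in Btg1, Foxo1, Foxp1, Klf13 and Klf6 (37.4% of all). A match only describes these letters, and a missing match says only that they are not in these windows.

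**Figure D1:**
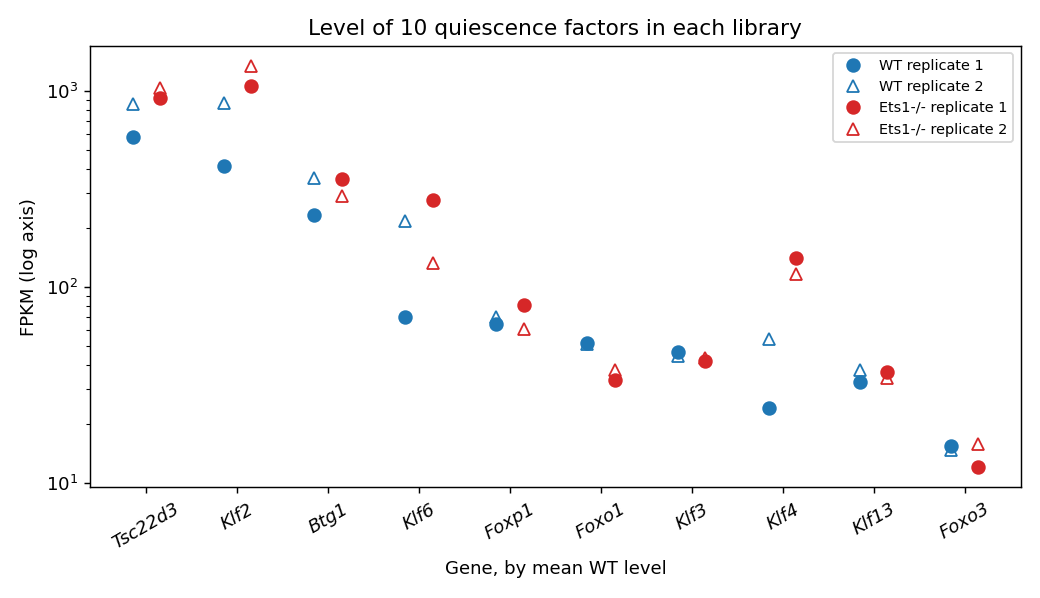
FPKM (log axis) of the 10 quiescence factors in each library, ordered by WT mean, with WT in blue, Ets1-/- in red, circles for replicate 1 and triangles for replicate 2. Klf4 stands at 24.1 and 54.3 FPKM in WT and at 141 and 116 in Ets1-/-, while Foxo3, Foxp1, Klf6, Klf13 and Btg1 overlap between the genotypes.

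Before the single genes, some properties of the libraries bear on them. The deepest library held 2.01 times the reads of the shallowest, judged from the smallest steps of low FPKM values, and 10466 to 10713 genes reached 1 FPKM in each. The 10 B cell markers summed to between 18949 and 22137 FPKM in each library, with none at 0. The whole-gene FPKM of Ets1 (231 and 275 in WT, 229 and 229.8 in Ets1-/-) does not check the labels, since the mutant allele still gives transcript that lacks only part of the gene. The 12 neutrophil markers summed to 117 and 97.6 FPKM in WT and to 2586 and 711 in Ets1-/-. Of these markers, 11 of 12 were higher without overlap, where 19.4% of all tested genes were. All 12 were at least 2-fold higher in the first Ets1-/- library than in the second, where 4.96% of all tested genes were. Macrophage and monocyte markers summed to 68.3 and 33.2 in WT and to 155 and 97.5 in Ets1-/-, and no marker of that list was at 0. Erythroid and platelet markers summed to 7.13 and 5.67 in WT and to 89.6 and 28.6 in Ets1-/-. Natural killer cell markers summed to 38.7 and 25.2 in WT and to 17.6 and 26.3 in Ets1-/-, so their sums overlapped. Gene by gene, 5 of these 6 markers were lower without overlap, where 22.2% of all tested genes were. The median log2 change of this list was -0.94. Ngp, Camp and Ltf of the neutrophil list and Emr1 of the macrophage list passed both thresholds, higher in Ets1-/-, and did so with any 1 library left out. In sorted bulk RNA a change in the share of cells and a change in RNA per cell cannot be told apart.

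Foxo1 (chr3:52072259-52154031 on mm9, plus strand) is the FOXO factor that lymphocytes need for expression of the IL-7 receptor. It was at 51.9 and 51.0 FPKM in WT and at 33.6 and 37.6 FPKM in Ets1-/-. Both Ets1-/- libraries were below both WT libraries, and the WT pair differed little. The means were 51.5 ± 0.646 and 35.6 ± 2.83 FPKM (SD, n = 2), and the log2 change on the log2(FPKM + 1) scale was -0.52 (SE 0.14, 95% interval -0.88 to -0.17). Its adjusted p by limma with Benjamini-Hochberg was 0.180, so it did not pass.

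Foxo3 (chr10:41901647-41996561, minus strand), which shares the DNA element of Foxo1, was at 15.3 and 14.6 FPKM in WT and at 11.97 and 15.8 FPKM in Ets1-/-. The genotypes overlapped, since the second Ets1-/- library was the highest of the 4 and the first the lowest. The log2 change was -0.11 (SE 0.18, interval -0.56 to 0.34). Within each library, Foxo1 was above Foxo3 by a ratio of FPKM of 3.39 and 3.48 in WT and of 2.81 and 2.37 in Ets1-/-, so this ratio was lower in both Ets1-/- libraries than in either WT library. FPKM divides by gene length, so such ratios compare levels per length.

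Foxp1 (chr6:98875332-99216526, minus strand) is a forkhead repressor needed for B cell development and for quiescence of naive T cells. Its level was 64.6 and 70.2 FPKM in WT and 80.8 and 60.9 FPKM in Ets1-/-. The Ets1-/- libraries bracketed the WT ones, and the log2 change was 0.06 (SE 0.19, interval -0.42 to 0.54). The gene has 13 coding transcripts in the annotation, which a single FPKM per gene does not separate.

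Klf2 (chr8:74842932-74845555, plus strand), the factor that drives S1pr1 and restrains proliferation of naive lymphocytes, was at 414 and 866 FPKM in WT and at 1058 and 1338 FPKM in Ets1-/-. Both Ets1-/- libraries were above both WT libraries, but the WT replicates differed 2.09-fold from each other. The means were 640.1 ± 320.1 and 1198 ± 198 FPKM (SD, n = 2). The log2 change was 0.99 (SE 0.40, interval -0.02 to 2.001), with an adjusted p of 0.384 by limma with Benjamini-Hochberg. It was 0.46 without WT replicate 1 and 1.52 without WT replicate 2, so leaving out either WT library moved it by over 1.5 times.

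Klf4 (chr4:55540013-55545347, minus strand) is a FOXO target that induces cell cycle inhibitors and limits B cell proliferation. It was at 24.1 and 54.3 FPKM in WT and at 141 and 116 FPKM in Ets1-/-. The lower Ets1-/- library was above the higher WT library, while the WT replicates differed 2.26-fold. The means were 39.2 ± 21.4 and 129 ± 17.1 FPKM (SD, n = 2), the log2 change was 1.79 (SE 0.39, interval 0.79 to 2.79) and the adjusted p was 0.120 by limma with Benjamini-Hochberg. Without WT replicate 2 the change was 2.36 with an adjusted p of 0.0118, which passed both thresholds, and without WT replicate 1 it was 1.22 with an adjusted p of 0.190. Among tested genes its mean stood at percentile 78.9 in WT and at 93.9 in Ets1-/-. Neutrophil and monocyte marker sums were also higher in both Ets1-/- libraries. Within WT both sums were lower in replicate 2 than in replicate 1, while Klf4 was higher in replicate 2. The part of these markers in the Klf4 values was not tested.

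Klf6 (chr13:5860735-5869639, plus strand), a ubiquitous factor that is itself induced quickly by stimulation, was at 70.3 and 216 FPKM in WT and at 275.5 and 133 FPKM in Ets1-/-. The genotypes overlapped, and each pair of replicates differed widely, by 3.07-fold in WT and by 2.08-fold in Ets1-/-. The log2 change was 0.63 (SE 0.62, interval -0.95 to 2.21), and it turned negative, at -0.17, without WT replicate 1. The neutrophil and the macrophage marker sums were highest in the first Ets1-/- library, as was Klf6. Within WT both sums were lower in replicate 2 (97.6 and 33.2 FPKM) than in replicate 1 (117 and 68.3), while Klf6 was higher in replicate 2. The part of these markers in the Klf6 values was not tested.

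Klf3 and Klf13 were steady. Klf3 (chr5:65194628-65221368, plus strand), a repressor that opposes other KLF proteins, was at 46.3 and 44.1 FPKM in WT and at 41.9 and 43.5 FPKM in Ets1-/-, a log2 change of -0.08 (SE 0.13, interval -0.42 to 0.26). The Ets1-/- libraries were a little below the WT ones without overlap. Klf13 (chr7:71031237-71083801, minus strand), which regulates lymphocyte cytokine genes, was at 32.8 and 37.5 FPKM in WT and at 36.7 and 34.2 FPKM in Ets1-/-, and the groups overlapped. Its log2 change was 0.02 (SE 0.14, interval -0.35 to 0.38).

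Tsc22d3 (chrX:137074067-137135198, minus strand) was at 578 and 857 FPKM in WT and at 915 and 1038 FPKM in Ets1-/-. The Ets1-/- libraries were both above the WT libraries, though only slightly above WT replicate 2. The log2 change was 0.47 (SE 0.26, interval -0.20 to 1.14), and the ratio of means was 1.36. The change was 0.19 without WT replicate 1 and 0.75 without WT replicate 2. Btg1 (chr10:96079635-96085447, plus strand) was at 233 and 359 FPKM in WT and at 355 and 289 FPKM in Ets1-/-, so the genotypes overlapped. Its log2 change was 0.15 (SE 0.27, interval -0.54 to 0.83).

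**Figure D2:**
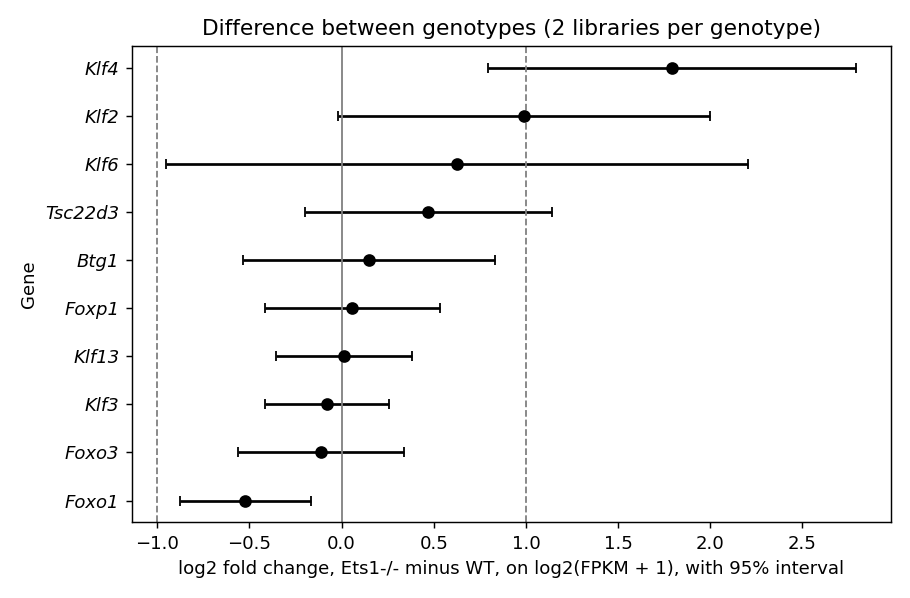
Log2 change between Ets1-/- and WT cells on the log2(FPKM + 1) scale, as the fitted value with its 95% interval from limma (n = 2 libraries per genotype), for the 10 quiescence factors. The Klf4 interval, 0.79 to 2.79, and the Foxo1 interval, -0.88 to -0.17, lie on 1 side of 0, while the Klf2 interval begins at -0.02; dashed lines mark a 2-fold change.

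Across the 10 genes, 7 were fitted higher and 3 lower, with a median log2 change of 0.10 against -0.02 over all tested genes. Among the 5 without overlap between genotypes, 2 were lower in Ets1-/- cells (Foxo1 and Klf3), where 22.2% of all genes were, and 3 were higher (Klf2, Klf4 and Tsc22d3), where 19.4% were. In WT cells the order of mean FPKM ran from Tsc22d3, Klf2, Btg1 and Klf6 through Foxp1, Foxo1, Klf3 and Klf4 to Klf13 and Foxo3. The libraries overlapped between Tsc22d3 and Klf2, between Klf3 and Klf4 and between Klf4 and Klf13, so these neighbours did not differ beyond their spread. In Ets1-/- cells Klf2 was first and Klf4 stood above Foxp1, and the overlapping neighbours were Klf6 with Klf4 and Foxo1 with Klf13.

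The WT replicates lay far apart for several of these genes. WT replicate 2 was at least 2-fold above replicate 1 for 3 of the 10, Klf2, Klf4 and Klf6, where 2.07% of all tested genes were. Between the Ets1-/- libraries, 1 of the 10, Klf6, was 2-fold or more above in the first, where 4.96% of genes were. WT replicate 1 was the lowest of the 4 libraries for 6 of the 10 genes and for 21.3% of all genes. Klf2, in the order of its 4 libraries, matched the summed immediate early genes, which are induced within minutes of stimulation and summed to 4476 and 7018 FPKM in WT and to 9501 and 10052 FPKM in Ets1-/-. Tsc22d3 had the same order of libraries. Of the 19 immediate early genes tested, none passed both thresholds in limma, where 1.70% of all genes did. Under an unadjusted p of 0.05 in limma were 6 of them, where 13.3% of all genes were. Without overlap, 12 were higher and 0 lower, where 19.4% and 22.2% of all genes were. The median log2 change of the list was 0.74. Without WT replicate 2, the log2 change was 1.97 for Dusp1, 2.03 for Egr1, 1.685 for Fos and 2.80 for Fosb. Without WT replicate 1, it was 1.14, 1.11, 0.79 and 1.14 in the same order. WT replicate 2 was the WT library nearer the Ets1-/- values for each of them, so leaving it out had to widen the gap. The highest change in the list was that of Atf3 (1.03 and 3.91 FPKM in WT, 37.3 and 3.54 in Ets1-/-, adjusted p = 0.533 in limma), which rested on the first Ets1-/- library, and the lowest was that of Nr4a1 (70.8 and 141, then 137 and 66.2), where the genotypes overlapped. Egr1 was at 132 and 250.2 FPKM in WT and at 636 and 462 FPKM in Ets1-/-. Dusp1 was at 136 and 244 in WT and at 603 and 481 in Ets1-/-. Both were chosen after their values were seen because their libraries had the order of Klf4, so this likeness was fixed by the choice. An order of 4 libraries cannot rank genes by likeness, which holds for Klf2 and Tsc22d3 as well. The part of the immediate early genes in the Klf2, Klf4 and Tsc22d3 values was not tested.

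**Figure D3:**
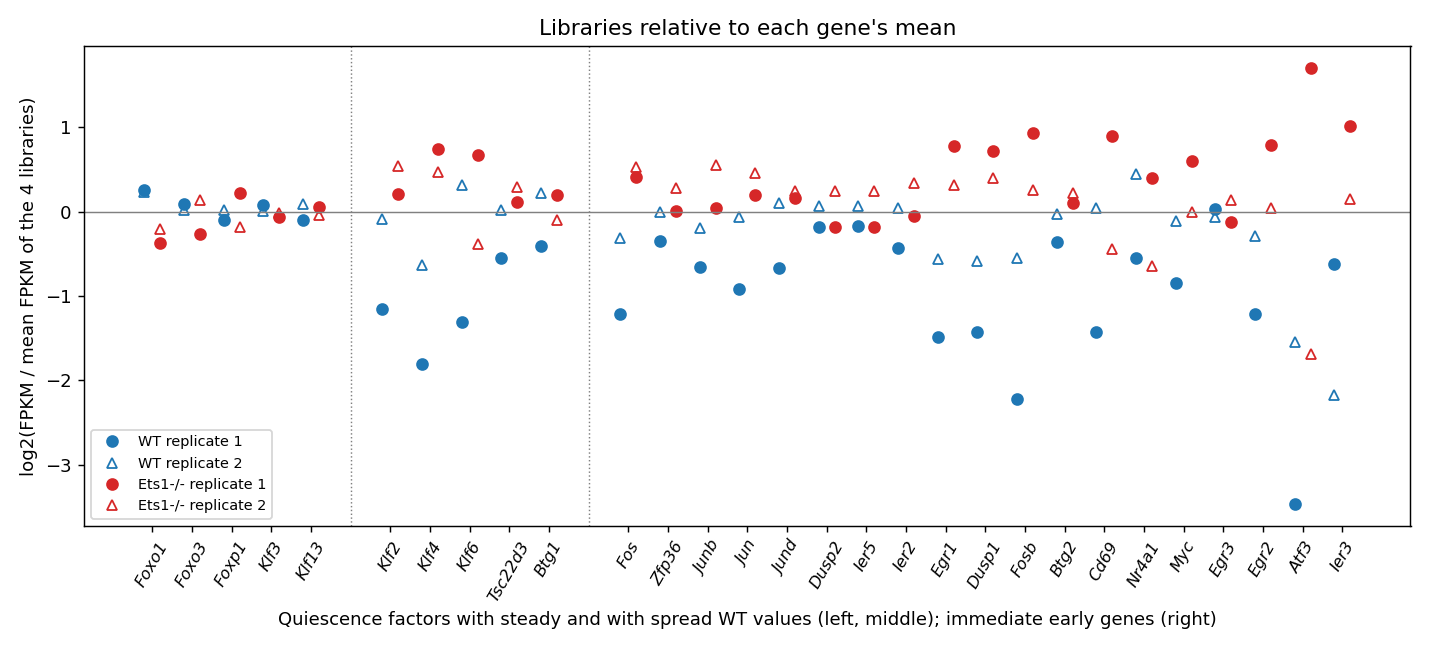
Log2 ratio of each library's FPKM to the gene's mean over the 4 libraries, for the 5 factors with steady WT values (left), the 5 with spread ones (middle) and 19 immediate early genes (right). WT replicate 1 lies lowest for Klf2, Klf4, Klf6, Tsc22d3 and Btg1, whose ratio of WT replicate 2 to replicate 1 ran from 1.48 to 3.07.

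Ratios within a library show how the balance of factors stood. The Klf2 to Foxo1 ratio of FPKM was 7.97 and 17.0 in WT and 31.5 and 35.6 in Ets1-/-, and the Klf2 to Klf3 ratio was 8.93 and 19.6 in WT and 25.2 and 30.7 in Ets1-/-. Both ratios were higher in both Ets1-/- libraries than in either WT library. This follows from the single genes, since Klf2 was higher and Foxo1 and Klf3 were lower without overlap. The Klf2 to Klf6 ratio overlapped, at 5.89 and 4.01 in WT and at 3.84 and 10.1 in Ets1-/-. The Klf2 to Klf4 ratio was lower in both Ets1-/- libraries, at 7.52 and 11.5 against 17.2 and 15.96 in WT.

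**Figure D4:**
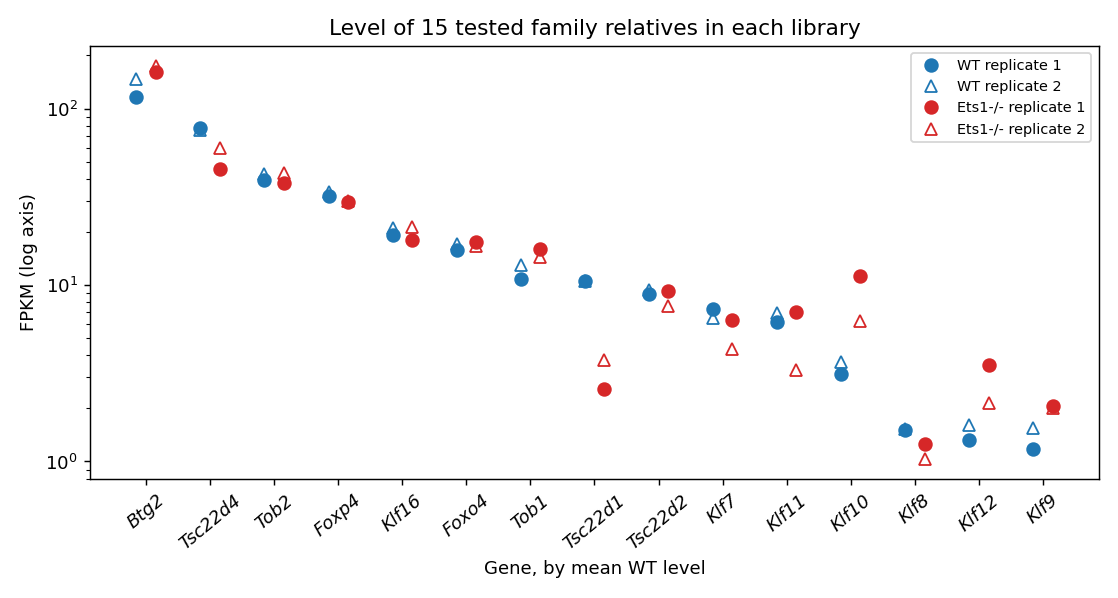
FPKM (log axis) of the 15 tested family relatives in each library, ordered by WT mean, with WT in blue, Ets1-/- in red, circles for replicate 1 and triangles for replicate 2. Tsc22d1 lies at 2.57 and 3.76 FPKM in Ets1-/- against 10.5 in both WT libraries.

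Of the 25 relatives in the same families, 15 were tested, and 1 passed both thresholds, lower in Ets1-/-, where 0.822% of all genes were called lower and 0.877% higher. Tsc22d1, a relative of Tsc22d3 that can pair with it, was at 10.5 FPKM in both WT libraries and at 2.57 and 3.76 FPKM in Ets1-/-. It fell by 1.48 on the log2 scale (SE 0.19, adjusted p = 0.0361 by limma with Benjamini-Hochberg). This call was lost without WT replicate 1 (adjusted p = 0.117 in limma), without WT replicate 2 (0.1004) and without Ets1-/- replicate 1 (0.0533). Tsc22d4 was at 77.9 and 75.6 FPKM in WT and at 45.3 and 59.6 FPKM in Ets1-/-, without passing (adjusted p = 0.261 by limma with Benjamini-Hochberg). Klf10 (3.14 and 3.67 FPKM in WT, 11.3 and 6.22 in Ets1-/-) and Klf12 (1.32 and 1.62, then 3.51 and 2.15) were higher in each Ets1-/- library, with adjusted p of 0.167 and 0.335 by limma with Benjamini-Hochberg. Klf9 was at 1.18 and 1.56 in WT and at 2.07 and 1.997 in Ets1-/-. Foxo4, Foxp4, Klf7, Klf8, Klf11, Klf16, Tsc22d2, Btg2, Tob1 and Tob2 were tested and did not pass, with Btg2 at 117 and 147 FPKM in WT and at 161 and 175 in Ets1-/-. Klf14 and Btg4 were listed at 0 in every library.

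Of 30 genes that FOXO factors are known to drive, 27 were tested and 0 passed in limma, where 1.70% of all genes did, and 5 were under an unadjusted p of 0.05, where 13.3% were. Without overlap, 7 were higher and 11 lower, where 19.4% and 22.2% of all genes were, and the median log2 change was -0.10 against -0.02 over all genes. Il7r was at 4.90 and 4.13 in WT and at 2.83 and 1.66 in Ets1-/-, the lowest log2 change of the list (-0.79, adjusted p = 0.209 by limma with Benjamini-Hochberg), and Ccr7, the chemokine receptor that brings cells to lymph nodes, had the highest (133 and 148, then 215 and 183; 0.50, adjusted p = 0.288). Cdkn1b, the cell cycle inhibitor p27, was at 51.8 and 67.7 in WT and at 62.1 and 55.8 in Ets1-/-, and Pik3ip1, a PI3K inhibitor, was at 29.9 and 25.4 in WT and at 24.4 and 27.3 in Ets1-/-.

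The 10 trafficking targets of Klf2 were all tested, and 0 passed in limma, where 1.70% of all genes did. Under an unadjusted p of 0.05 were 3 (13.3% of all genes). Without overlap, 4 were higher (19.4%) and 3 lower (22.2%), and the median was -0.16. S1pr1, the receptor by which lymphocytes leave tissue, was at 97.6 and 100.1 FPKM in WT and at 130 and 117 in Ets1-/-, a log2 change of 0.32. Cxcr4 had the highest change in the list (211 and 292 in WT, 431 and 494 in Ets1-/-, 0.89, adjusted p = 0.162 by limma with Benjamini-Hochberg) and Plaur the lowest (83.3 and 94.9, then 54.6 and 58.6; -0.64, adjusted p = 0.135).

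Of 23 regulators of FOXO, all tested, 0 passed in limma and 2 were under an unadjusted p of 0.05, with a median of -0.07. Without overlap, 4 were higher and 4 lower. Of all genes, 1.70% passed, 13.3% were under that p, and 19.4% were higher and 22.2% lower without overlap. These shares also stand against the counts of the lists that follow. Sgk1, a kinase that phosphorylates FOXO proteins, was the lowest (15.6 and 18.3 in WT, 9.61 and 11.1 in Ets1-/-, -0.66), and Ywhaz, a 14-3-3 protein that holds them in the cytoplasm, the highest (153 and 175, then 225 and 187). Of 15 genes of mRNA deadenylation and BTG partners, among them subunits of the complex that Btg1 joins, 0 passed in limma, 2 were under an unadjusted p of 0.05 and the median was -0.03, from Cnot6l (31.6 and 31.0 in WT, 25.2 and 21.8 in Ets1-/-) to Cnot10 (27.8 and 26.9, then 35.5 and 38.3). Without overlap, 3 were higher and 2 lower. Of 11 glucocorticoid response genes tested, 0 passed in limma, 4 were under an unadjusted p of 0.05 and the median was 0.32. Il7r was the lowest and Dusp1, a phosphatase of MAP kinases with a log2 change of 1.56, the highest. Without overlap, 5 were higher and 3 lower. Tsc22d3 is itself in this list, and Dusp1 is also among the immediate early genes. Of 21 other quiescence genes tested, 0 passed in limma, 4 were under an unadjusted p of 0.05 and the median was -0.09, from Nfatc2 (6.30 and 7.06 in WT, 4.62 and 2.62 in Ets1-/-) to Bach2, a repressor of plasma cell fate (25.2 and 25.6, then 43.4 and 39.4). Without overlap, 4 were higher and 6 lower.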

How the data were processed

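RNA from quiescent follicular B cells (2 WT and 2 Ets1-/- replicates) had been made into TruSeq libraries and sequenced on a HiSeq2500. Per the submitters' processing notes, TopHat2 2.0.13 aligned reads to mm9 and Cuffdiff gave the values; the annotation and the version of Cuffdiff are not given in the sources used here. The deposited values are FPKM per gene, 1 file per library. As FPKM values are not counts, limma was run on log2(FPKM + 1). Read counts behind a value are unknown, and no interval for counting error is given.

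Of 23309 entries, 4 with a repeated symbol were left out. Genes with a mean of at least 1 FPKM in either genotype were tested (10949 genes) with limma 3.58.1 (R 4.3.3; lmFit and eBayes with a trend) and Benjamini-Hochberg adjustment, and a call needed an adjusted p of at most 0.05 and a change of at least 2-fold. Ratios, counts and figures used Python 3.11.15 with pandas 2.3.3. With 2 replicates per group, each p-value weighs the genotype difference against the spread between these libraries, moderated by the trend over all genes. The residual degrees of freedom were 2 with a prior of 3.10. The steps were tested on simulated data. The members, gene lists and motifs were chosen with earlier results of these data known. Named genes are the 10 factors, their relatives, the highest and lowest change and calls of each pathway list, and S1pr1, Il7r, Ccr7, Cdkn1b and Pik3ip1; another gene of this rule is not reported here. Egr1, Fos, Fosb and the called markers were named after their values were seen. Gene positions are from GENCODE on mm9, and promoters from RefSeq on GRCm38.p6. Replicate numbers are shared between genotypes, but deviations of equally numbered libraries from their group means correlated at -0.21, so they were not used to pair libraries. Alternatives were other pseudocounts, filters, thresholds, scalings, blocks, leaving out each library and a ratio of means.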

Additional observations from a re-analysis of the deposited data

How the results depend on the processing

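With 2 libraries per genotype, leaving out 1 leaves a group with a single library, which is then assumed to vary like the others. Of the 160 alternative values of the 10 factors, 149 kept their direction and, where tested, their side of the threshold. The filters, thresholds, blocks and robust eBayes leave the log2 change itself unchanged, so direction could not reverse there. All 8 reversals of the factors came with 1 library left out. Leaving out 1 library gave log2 changes from -0.60 to -0.44 for Foxo1, -0.30 to 0.076 for Foxo3, -0.14 to 0.26 for Foxp1, 0.46 to 1.52 for Klf2, -0.11 to -0.045 for Klf3, 1.22 to 2.36 for Klf4, -0.17 to 1.43 for Klf6, -0.078 to 0.11 for Klf13, 0.19 to 0.75 for Tsc22d3 and -0.16 to 0.46 for Btg1, with -0.59 to 0.45 for Nr4a1. Direction was reversed without WT replicate 1 for Btg1 (-0.16), Foxp1 (-0.00026), Klf13 (-0.078) and Klf6 (-0.17), without Ets1-/- replicate 1 for Btg1 (-0.0010), Foxo3 (0.076), Foxp1 (-0.14) and Klf13 (-0.035), and for Nr4a1 without WT replicate 2 (0.42) or Ets1-/- replicate 2 (0.45). The cause was not tested.

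The number of factors past both thresholds went from 0 to 1, Klf4 each time, with the replicate number as a block (change 1.79, adjusted p = 0.0247 in limma), with the crossed pairing as a block (1.79, adjusted p = 0.000246 in limma), which was chosen after seeing the data, and in 1 case of leaving out a library (range 0 to 1). By the ratio of means, which has no test, 1 factor, Klf4, was past 2-fold. The 186 genes called became 75 with no filter, 106 with a mean of at least 5 FPKM, 312 at an adjusted p of 0.1, 409 with the crossed pairing, 305 with robust eBayes and 803 with the ratio of means. The 2 genes called in the pathway lists, markers aside, became 0 with no filter, 1 with a mean of at least 5 FPKM, 1 with quantile scaling, 8 with the crossed pairing, 11 with the ratio of means and 0 to 4 with 1 library left out. The Tsc22d1 call was lost with no filter (adjusted p = 0.0948 in limma), with a mean of at least 5 FPKM (0.0554) and with quantile scaling (0.0660), and the Ccnd2 call with no filter (0.0685) and with the replicate block (0.0529). Dusp1 gained a call with the replicate block (0.0390) and with robust eBayes (0.0465). The calls of Ngp, Camp and Ltf were lost with no filter (0.0777 to 0.0949) and with robust eBayes (0.103 to 0.128), and that of Ltf with upper-quartile scaling (0.0599). Neither pairing was given by the labels. The replicate block changed no call of the other 9 factors.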

Other observations

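Cell cycle genes had 1 of 29 tested genes past both thresholds, in the higher direction, where 0.877% of all genes were called. Ccnd2, the D cyclin that resting B cells raise on stimulation, was at 11.9 and 11.1 FPKM in WT and at 25.8 and 24.0 FPKM in Ets1-/-, and it rose by 1.05 on the log2 scale (SE 0.13, adjusted p = 0.0383 by limma with Benjamini-Hochberg). Leaving out any 1 library ended the call, with adjusted p from 0.0773 to 0.283 in limma. Ccnd3, the other D cyclin of these cells, was at 40.9 and 41.4 FPKM in WT and at 24.2 and 30.2 FPKM in Ets1-/- without passing. The median of the list was 0.05, and 4 genes were higher and 5 lower without overlap, where 19.4% and 22.2% of all genes were.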
